A study of Homo sapiens with 7 samples.

Results

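Contacts between 2 positions on the same chromosome arm that lie 50 Mb or more apart were described by Hi-C in an established line from a human colorectal adenocarcinoma, DLD-1, with and without the DNA methyltransferases DNMT1 and DNMT3B. An autosomal arm was taken when it held at least 10000 valid pairs of 50 kb bins at these separations in every one of the 7 libraries, and 19 of 44 autosomal arms did. Both arms of chromosomes 1, 2 and 3 were among them, with the long arms of chromosomes 4 to 15 and 18. The choice rests on the number of valid bin pairs, which follows arm length and the bins kept in each library, and the range of 50 Mb was set with earlier results of these libraries known. The arm nearest above the minimum was 18q, with 14481 to 15505 pairs over the libraries, followed by 9q with 69201 to 74518. The nearest arms below it were 17q, with 6276 to 7053 pairs, and 7p, with 5724 to 7147. Balanced contact beyond 50 Mb in the untreated DNMT1-AID library per 1000000 valid bin pairs was 56.4 on 18q and 23.8 on 9q, and 38.9 on 17q and 34.7 on 7p.

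DNMT1 copies methylation onto newly made DNA after replication, and DNMT3B can add methylation to DNA that has none. In every library DNMT1 carried an auxin-inducible degron (DNMT1-AID), a tag that makes cells destroy the protein once auxin, a plant hormone, is given. The DNMT1-AID libraries were untreated, given auxin for 4 d, given auxin for 10 d, and given auxin for 4 d and then washed free of it for 4 d. The libraries of cells that also lacked DNMT3B (DNMT3b -/-, called knockout here) were untreated or given auxin for 4 d or 10 d, and the labels' protocols give 500 nM as the dose. With 1 library to a group, differences between groups could not be set against replicate spread. Numbers of arms with a direction describe these libraries, since the arms of a library share its cells, ligation and depth. Since all cells carried the degron, what auxin does by itself and what loss of DNMT1 does cannot be told apart. The labels do not say whether each line is a single clone. The untreated knockout library was grouped by its title, because its genotype label names only DNMT1-AID, and sums of contacts give no reading of single genes by which the deletion or the degradation could be checked.

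Chromosomes occupy separate territories in the nucleus, and the arms of a chromosome tend to keep to their own side of it. Contact falls as the distance along the DNA grows, and at the largest separations it comes close to the level between different chromosomes (trans contact). At such distances contact depends on folding into active (A) and inactive (B) compartments, whose stretches meet their own kind more often than the other kind, and loss of DNA methylation is known to alter inactive chromatin. Hi-C ligates pieces of DNA that lie near each other in fixed nuclei, and balancing rescales the map so that every bin has the same total.

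The libraries held 27345260 (washout) to 222645438 (DNMT1-AID, 4 d of auxin) contacts. Of these, 271600 to 1975445 lay within the 19 arms at 50 Mb or more. Without auxin, 1.66% of the contacts within the 19 arms lay beyond 50 Mb in DNMT1-AID cells, and the share was 1.356% after 4 d, 2.11% after 10 d and 1.85% after washout. In knockout cells the share was 1.75% without auxin, 2.10% after 4 d and 3.01% after 10 d. The 95% exact binomial (Clopper-Pearson) interval of the washout library, the shallowest, was 1.84% to 1.85%. It covers counting error only, and duplicate reads are not independent molecules. The shares of all 7 libraries lay farther apart than such intervals except those of DNMT1-AID and knockout cells at 10 d and 4 d of auxin, 2.11% and 2.10%.

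The level of contact was measured as balanced contact per 1000000 valid bin pairs, pooled over the 19 arms and all separations from 50 Mb. It was 23.9 in untreated DNMT1-AID cells, 19.8 after 4 d of auxin, 28.1 after 10 d and 25.9 after washout. In knockout cells it was 23.9 untreated, 29.2 after 4 d and 38.7 after 10 d. The knockout library at 10 d was the highest of the 7 on 19 of 19 arms, and the DNMT1-AID library at 4 d was the lowest on 19 of 19. No share over all windows was computed for these ranks.

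**Figure D1:**
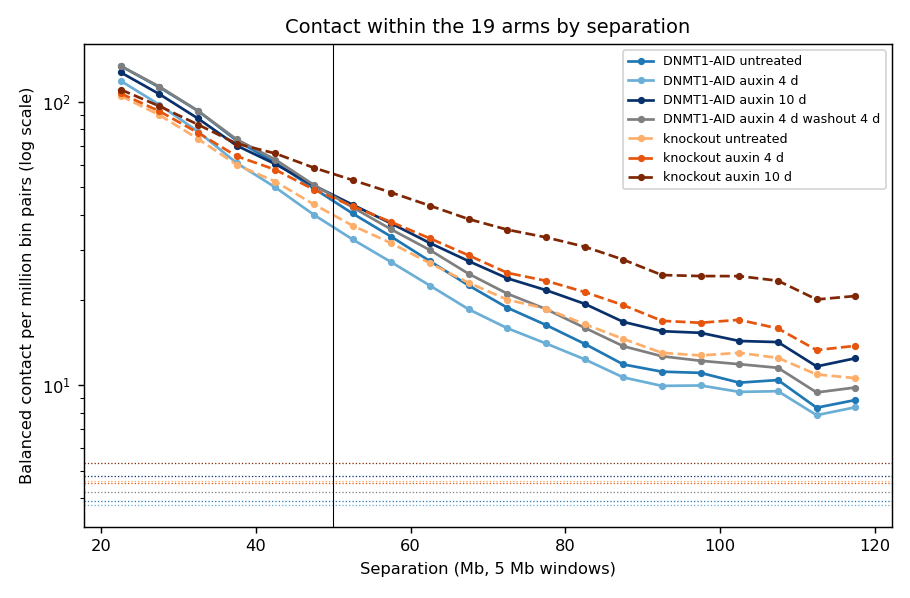
Balanced contact per 1000000 bin pairs (vertical axis, log scale) against separation in Mb, pooled over the 19 arms in windows of 5 Mb, 1 line per library; the vertical line marks 50 Mb and the dotted lines the trans contact of each library. Beyond 50 Mb the knockout library at 10 d of auxin runs above the others and the DNMT1-AID library at 4 d below them, and every line stays above the trans levels of 3.79 to 5.33.

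After 4 d of auxin, DNMT1-AID cells had less contact beyond 50 Mb than untreated cells on every arm measured. The pooled log2 ratio was -0.27, and the arms lay between -0.41 (13q) and -0.19 (1p). The ratio was below 0 on 19 of 19 arms, where the background was 90.3% of 527 windows, each a 5 Mb step of separation on 1 autosomal arm with all separations included. Among the 186 windows of the 19 arms beyond 50 Mb, 177 were below 0 and 111 were past -0.2, against 55.2% of all windows past -0.2. Their median of -0.23 lay near the -0.22 of all windows. The count and the median of the far windows thus lay near the background, which includes these windows. Within the same arms, pooled contact at 10 to 50 Mb had a log2 ratio of -0.16. It went from -0.091 at 10 to 20 Mb to -0.30 at 40 to 50 Mb. After 13q, the lowest arms were 9q (-0.39) and 11q (-0.33), and the highest after 1p were 1q (-0.22) and 6q (-0.24).

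On 13q the level was 23.6 untreated and 17.8 after 4 d of auxin in DNMT1-AID cells, 23.8 after 10 d and 24.5 after washout. In knockout cells 13q had 22.2 untreated, 24.6 after 4 d and 33.6 after 10 d. The library at 4 d in DNMT1-AID cells stood below the other 6 on this arm, and the knockout library at 10 d above them.

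After 10 d of auxin, contact beyond 50 Mb in DNMT1-AID cells was higher than in untreated cells, with a pooled log2 ratio of 0.24. It was higher on 18 of 19 arms, against a background of 43.8% of the windows, and 18q was the exception at -0.0062. The arm 18q holds little beyond 60 Mb, and at 50 to 60 Mb 13q was lower, at -0.081. With separations matched and arms weighted equally, the ratio was above 0 on 19 of 19 arms. Past a log2 ratio of 0.2 there were 139 of 186 windows of the 19 arms, against 28.3% of all windows. The median of the 186 was 0.34, and that of all windows -0.032. At the upper end stood 3p (0.36), 15q (0.35) and 1q (0.32), and the lowest after 18q were 13q (0.0081) and 8q (0.12). Within the same arms, pooled contact at 10 to 50 Mb had a log2 ratio of -0.067. The ratio was 0.0057 at 40 to 50 Mb and 0.12 at 50 to 60 Mb. The trans contact of the same chromosomes was also higher, by 0.30, and relative to it the far contact was lower (-0.061) and higher on only 6 of 19 arms. This direction depended on the limit, since from 60 Mb on the far contact was 4.72 times trans contact after 10 d and 4.61 times without auxin. For values relative to trans contact, here and below, no share over all windows was computed.

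After 4 d of auxin and 4 d of washout, contact beyond 50 Mb stood close above the untreated level, at a pooled log2 ratio of 0.12. It was higher on 19 of 19 arms, against 59.2% of all windows, and 57 of the 186 windows were past 0.2, against 12.1%. The arms lay between 0.054 (13q) and 0.22 (18q), with 3p (0.21) and 6q (0.16) next to 18q at the upper end and 1q (0.067) and 8q (0.071) next to 13q at the lower. Against the library at 4 d the washout library was higher by 0.38 on the pooled arms and on 19 of 19 arms (background 86.9%). There 18q (0.54), 3p (0.49) and 11q (0.48) were highest and 1q (0.29), 8q (0.32) and 1p (0.33) lowest. These comparisons share a library, and the washout library was the shallowest, with 928 contacts on 18q. Trans contact was also higher after washout than untreated, by 0.11. Relative to trans, contact beyond 50 Mb was higher than untreated by only 0.0092 and on 11 of 19 arms. Against the library at 4 d the relative value was higher by 0.23 and on 19 of 19 arms.

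Knockout cells given auxin had more contact beyond 50 Mb than untreated ones at both times. After 4 d the pooled log2 ratio was 0.29 (1.22-fold), and after 10 d it was 0.70 (1.62-fold). Both comparisons use the same untreated library. After 4 d the ratio was above 0 on 19 of 19 arms, against 84.1% of all windows, and 147 of 186 windows of the 19 arms were past 0.2, against 32.4% of all windows. After 10 d it was above 0 on 19 of 19 arms, against 84.6%, and all 186 windows were past 0.2, against 55.2%. At 10 d the median of the 186 windows was 0.78, and that of all windows 0.26. Pooled contact at 10 to 50 Mb in the same arms differed far less, by 0.052 at 4 d and 0.10 at 10 d. The rise was gradual and did not begin at 50 Mb. At 4 d the log2 ratio was 0.15 at 40 to 50 Mb and 0.24 at 50 to 60 Mb. At 10 d it was 0.37 and 0.56 in these windows. In the later library the trans contact of the chromosomes was higher by 0.21, so that contact beyond 50 Mb relative to trans was higher by 0.48 and on 19 of 19 arms. At 4 d the trans contact was lower by a little (-0.026), and the relative value was higher by 0.31, also on 19 of 19 arms. No share over all windows was computed for the relative values, so these 2 counts have no background beside them.

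The arm 3p stood highest in both comparisons. It spans chr3:1-92200000 in the bins of hg38 and holds 501 protein-coding genes of the RefSeq annotation. Its level was 28.0 in untreated knockout cells, 38.9 after 4 d and 54.3 after 10 d, which gave log2 ratios of 0.48 (4 d) and 0.95 (10 d). In DNMT1-AID cells it was 28.8 untreated, 23.7 after 4 d, 36.9 after 10 d and 33.3 after washout. The knockout libraries with auxin were thus the 2 highest of the 7 on 3p. After 3p, the upper end held 4q (0.36) and 6q (0.34) at 4 d, and 4q (0.81) and 2p (0.80) at 10 d. The lowest were 11q (0.068), 13q (0.15) and 1p (0.18) at 4 d, and 10q (0.52), 12q (0.53) and 11q (0.54) at 10 d.

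Without auxin, knockout and DNMT1-AID cells had nearly the same pooled contact beyond 50 Mb, with a log2 ratio of 0.0020 and a counting half-width of 0.0040. Pooled over all separations from 50 Mb, the arms did not share a direction: 10 of 19 were higher, against 27.3% of all windows. With separations matched and arms weighted equally, 15 of 19 arms were higher, and from 60 Mb on 16 of 18 were. Pooled from 50 Mb, the arms ranged from -0.14 on 8q to 0.46 on 9q. After 9q the highest were 1q (0.12) and 5q (0.084), and after 8q the lowest were 18q (-0.13) and 7q (-0.12). Past 0.2 there were 66 of the 186 windows, against 12.7% of all windows, and past -0.2 there were 15, against 49.7%. The median of the 186 was 0.13, and that of all windows -0.20. Without 9q, an alternative chosen after seeing the data, the pooled value was -0.0020. The pooled value joined lower contact at the nearer separations with higher contact at the farther ones. At 20 to 30 Mb the knockout library was lower (-0.34), at 50 to 60 Mb it was still lower (-0.11), at 60 to 70 Mb the libraries were alike (-0.0012), and at 110 to 120 Mb the knockout library was higher (0.33). Trans contact was higher in the knockout library by 0.23, and relative to trans the far contact was higher on 1 of 19 arms, 9q.

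With auxin, knockout cells had more contact beyond 50 Mb than DNMT1-AID cells at both times. At 4 d the pooled log2 ratio was 0.56 and 19 of 19 arms were higher, against 56.5% of all windows. At 10 d it was 0.46, with 19 of 19 arms higher against 52.8% of all windows. Past 0.2 there were 184 of 186 windows at 4 d (background 44%) and 181 at 10 d (39.8%). Pooled over 10 to 50 Mb in the same arms, the knockout libraries were lower than the DNMT1-AID libraries, by -0.11 at 4 d and -0.15 at 10 d. At 40 to 50 Mb, next to the limit, they were already higher, by 0.24 at 4 d and 0.16 at 10 d. Relative to trans contact, the knockout library was higher on 18 of 19 arms at 4 d (8q at -0.0065 was the exception) and on 19 of 19 at 10 d. These relative counts have no share over all windows beside them.

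The arm 9q was the highest in all 3 comparisons of the genotypes. It spans chr9:44450001-138400000 and had the largest share of bins in A clusters among the arms with clusters, 57.9%. Its level was 23.8 untreated, 18.2 after 4 d of auxin, 27.8 after 10 d and 25.0 after washout in DNMT1-AID cells. In the knockout libraries it was 32.8, 39.5 and 47.7. All 3 knockout libraries lay above all 4 DNMT1-AID libraries on this arm. The log2 ratios of the genotypes were 0.46 untreated, 1.12 at 4 d and 0.78 at 10 d. The next arms were 3p (0.71) and 2p (0.68) at 4 d, and 2p (0.57) and 3p (0.56) at 10 d, while 1p (0.40), 8q (0.43) and 18q (0.44) were lowest at 4 d and 10q (0.28), 15q (0.35) and 7q (0.35) at 10 d.

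Chromosome 8 stood apart in the knockout libraries. The arm 8q had 53289 raw contacts beyond 50 Mb in untreated DNMT1-AID cells and 66460 in untreated knockout cells, although the knockout library held fewer contacts in all (101594306 against 114710963). The balanced level of 8q was nevertheless lower, 26.0 against 28.6. Raw contacts were also more numerous on 9q, with 6862 in untreated DNMT1-AID and 8377 in untreated knockout cells, but there the balanced level was higher. On each of the other arms the untreated knockout library had fewer raw contacts. Trans contact of chromosome 8 was 5.30 per 1000000 bin pairs in the knockout library and 3.93 in the DNMT1-AID library, and relative to it 8q had the lowest log2 ratio of the 19 arms (-0.57). The other arm, 8p, had too few bin pairs beyond 50 Mb to be taken. The part of copy number in these values was not tested.

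**Figure D2:**
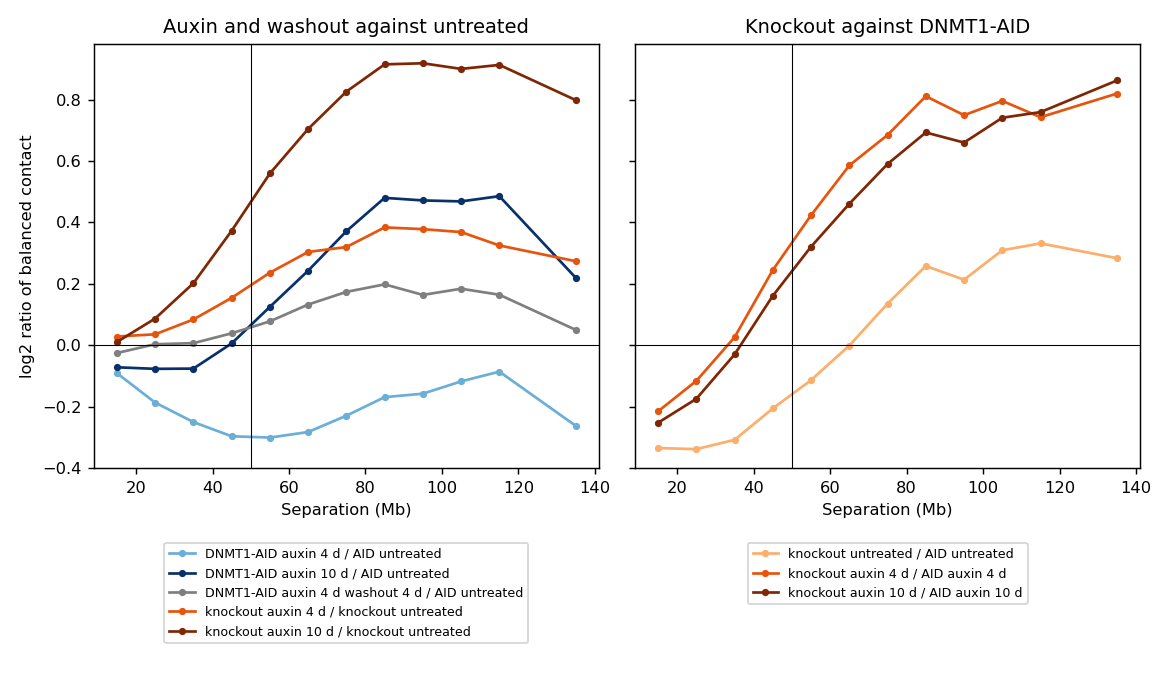
Log2 ratio of balanced contact between libraries (vertical axis) against separation in Mb, pooled over the 19 arms in windows of 10 Mb (the last from 120 to 150 Mb), with auxin or washout against untreated on the left and knockout against DNMT1-AID on the right. The line of knockout cells at 10 d rises from 0.56 at 50 to 60 Mb to 0.92 at 90 to 100 Mb, and the line of the untreated genotypes crosses 0 near 65 Mb.

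The differences between libraries changed with separation. At 50 to 60 Mb the level was 37.1 untreated, 30.1 after 4 d, 40.5 after 10 d and 39.2 after washout in DNMT1-AID cells, and 34.3, 40.4 and 50.5 in the knockout libraries in order of time. At 80 to 90 Mb it was 13.1, 11.6, 18.2 and 14.99, and 15.6, 20.4 and 29.5. The log2 ratio of knockout cells at 10 d to untreated was thus 0.56 in the nearer window and 0.92 in the farther. For DNMT1-AID cells at 10 d the values were 0.12 and 0.48. The deficit at 4 d in DNMT1-AID cells went from -0.30 at 50 to 60 Mb to -0.086 at 110 to 120 Mb, where 4 arms (1p, 2q, 4q and 5q) reached, and was -0.26 at 120 to 150 Mb, where 3 arms did. In DNMT1-AID cells at 10 d the ratio was 0.49 at 110 to 120 Mb and 0.22 at 120 to 150 Mb. Fewer arms enter at larger separations, so these pooled values do not follow 1 set of arms.

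The steepness of the decay does follow 1 set, the 15 arms with values up to 90 Mb. It was the slope of log contact on log separation between 50 and 90 Mb within each arm, where a less negative value is a shallower decay. The slope of 14q was positive in all 7 libraries, from 0.025 to 1.26, and this arm is counted below by whether its slope was higher. A single slope describes it poorly. In untreated DNMT1-AID cells its level fell from 37.2 at 50 to 60 Mb to 21.2 at 70 to 80 Mb. At 80 to 90 Mb it was 42.9, in a window with as few as 255 contacts. The median slope was -2.09 in untreated DNMT1-AID cells, -1.80 after 4 d, -1.42 after 10 d and -1.88 after washout. In knockout cells it was -1.45 untreated, -1.21 after 4 d and -0.86 after 10 d. After 10 d of auxin the slope was higher than untreated on 15 of 15 arms in both genotypes, and it was higher in knockout than in DNMT1-AID cells on 15 of 15 arms at each of the 3 times. At 4 d of auxin it was higher than untreated on 14 of 15 arms in DNMT1-AID cells, although contact was lower there, and on 13 of 15 in knockout cells. On 14q it was lower at 4 d in both, 0.025 against 0.14 in DNMT1-AID cells and 0.89 against 1.14 in knockout cells. Slopes at nearer separations were not computed, so these counts have no background. The pooled log2 ratio at 10 d also differed between nearer windows. In knockout cells it was 0.010 at 10 to 20 Mb and 0.37 at 40 to 50 Mb, and in DNMT1-AID cells -0.072 and 0.0057.

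Contact relative to trans gives a scale on which 1 is the level between chromosomes. Pooled over the 19 arms, contact beyond 50 Mb was 6.09 times the trans contact of the same chromosomes in untreated DNMT1-AID cells, 5.23 times after 4 d, 5.84 times after 10 d and 6.13 times after washout. Knockout cells had 5.19 times untreated, 6.45 times after 4 d and 7.26 times after 10 d. All 19 arms lay above trans contact in all 7 libraries. The knockout library at 10 d was the highest of the 7 on 17 of 19 arms. The lowest was the DNMT1-AID library at 4 d on 11 arms and the untreated knockout library on 8.

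Over all separations from 50 Mb, 18q had the highest value of the 19 arms in all 7 libraries. It is the shortest of the 19 at 62.25 Mb and holds only separations of 50 to 60 Mb and little beyond, where contact is highest. Its level relative to trans was 12.4 untreated, 10.2 after 4 d, 10.1 after 10 d and 13.4 after washout in DNMT1-AID cells, and 9.92, 11.8 and 12.3 in knockout cells. The next in the untreated DNMT1-AID library were 11q (8.22) and 7q (8.002). The lowest was 1p, at 3.42 untreated, 3.10 after 4 d, 3.44 after 10 d and 3.48 after washout, and 3.01, 3.47 and 4.12 in knockout cells. It was followed by 9q (5.02) and 5q (5.22). The arms 18q and 1p did not overlap in any library. At the matched separation of 50 to 60 Mb, 18q was the highest in 4 of the 7 libraries and stood close to 4q, with 12.4 against 12.3 in untreated DNMT1-AID cells. There 4q was higher at 4 d (10.4 against 10.2) and 10 d (10.23 against 10.12) in DNMT1-AID cells, and 3p was higher in knockout cells at 10 d (12.4 against 12.3). The lowest in all 7 libraries remained 1p, at 4.52 in untreated DNMT1-AID cells.

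**Figure D3:**
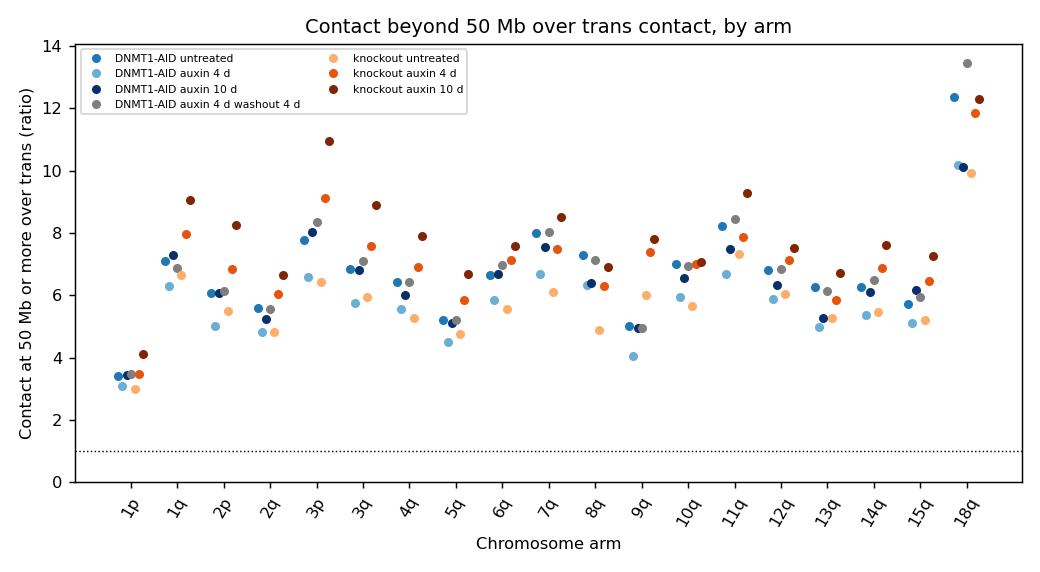
Contact at 50 Mb or more over the trans contact of the same chromosome (vertical axis, ratio) on each of the 19 arms, 1 point per library; the dotted line at 1 is trans contact. All points lie above 1, from 3.01 on 1p to 13.4 on 18q.

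Arms of unequal length can be set side by side at 1 separation. At 50 to 60 Mb in the untreated DNMT1-AID library, contact relative to trans was lower on arms with a larger share of bins in A clusters (Spearman's rho -0.64 and Pearson's r -0.72 over 18 arms). The clusters are the authors' grouping of bins of that same library, so both measures come from the same contacts. The points share that library and its depth, and the value is a description. With protein-coding genes per Mb, rho was -0.40 over 19 arms.

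Separations beyond 100 Mb were reached on 6 arms, 1p, 2q, 3q, 4q, 5q and 6q, with pooled levels at 100 to 110 Mb of 10.3 (untreated), 9.51 (4 d), 14.3 (10 d) and 11.7 (washout) in DNMT1-AID cells and 12.8, 16.5 and 23.9 in knockout cells. Pooled contact was still above trans contact there, from 2.64 times in the DNMT1-AID library at 4 d to 4.74 times in the knockout library at 10 d. The exception was 3q at its far end, from 100 to 110 Mb, where it was 0.80 times trans contact in untreated DNMT1-AID cells, 0.89 times after 4 d, 1.43 times after 10 d and 1.0003 times after washout. The knockout libraries had 1.46, 1.62 and 3.22 times. This end rests on few contacts, with 14 in the washout library.

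Contact did not decrease to the end on all arms. The far end of 2q lay above its middle: in the untreated DNMT1-AID library its level was 9.68 at 110 to 120 Mb and 27.5 at 140 to 150 Mb, the window of pairs that join the pericentromeric and the telomeric end of the arm. At 140 to 150 Mb the other libraries had 20.7 (4 d), 25.1 (10 d) and 23.8 (washout), and 30.7, 39.0 and 44.4 in knockout cells. All 7 libraries were thus higher at the end than in the window of lowest contact, by factors from 1.97 to 2.84. The share of bin pairs with both bins in A clusters was 16.2% at 110 to 120 Mb and 69.2% at 140 to 150 Mb. On 4q the last window was 1.33 times the lowest in untreated DNMT1-AID cells and 1.60 times in untreated knockout cells.

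A last window at least 1.5 times the lowest was found on 2q, 13q and 14q in all 7 libraries, out of 17 arms that reach beyond 70 Mb. In addition it was found on 7q in the washout library and on 4q in the knockout libraries untreated and at 4 d. The arms 13q and 14q were singled out after their values were seen. On 14q the level at 80 to 90 Mb was 42.9, 33.3, 54.8 and 51.1 in DNMT1-AID cells (untreated, 4 d, 10 d, washout) and 59.7, 66.8 and 97.8 in knockout cells (untreated, 4 d, 10 d). All 3 knockout libraries were higher than all 4 DNMT1-AID libraries in this window, in which 60.3% of bin pairs joined A bins to A bins and none joined B bins to B bins. The same order of the genotypes held at 140 to 150 Mb on 2q, and windows with it were not counted over all arms. On 13q the level at 90 to 100 Mb was 45.5, 32.8, 46.7 and 49.8, and 35.8, 49.3 and 60.4 in the same order, and the genotypes overlapped. No bin of 13q carries a cluster.

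**Figure D4:**
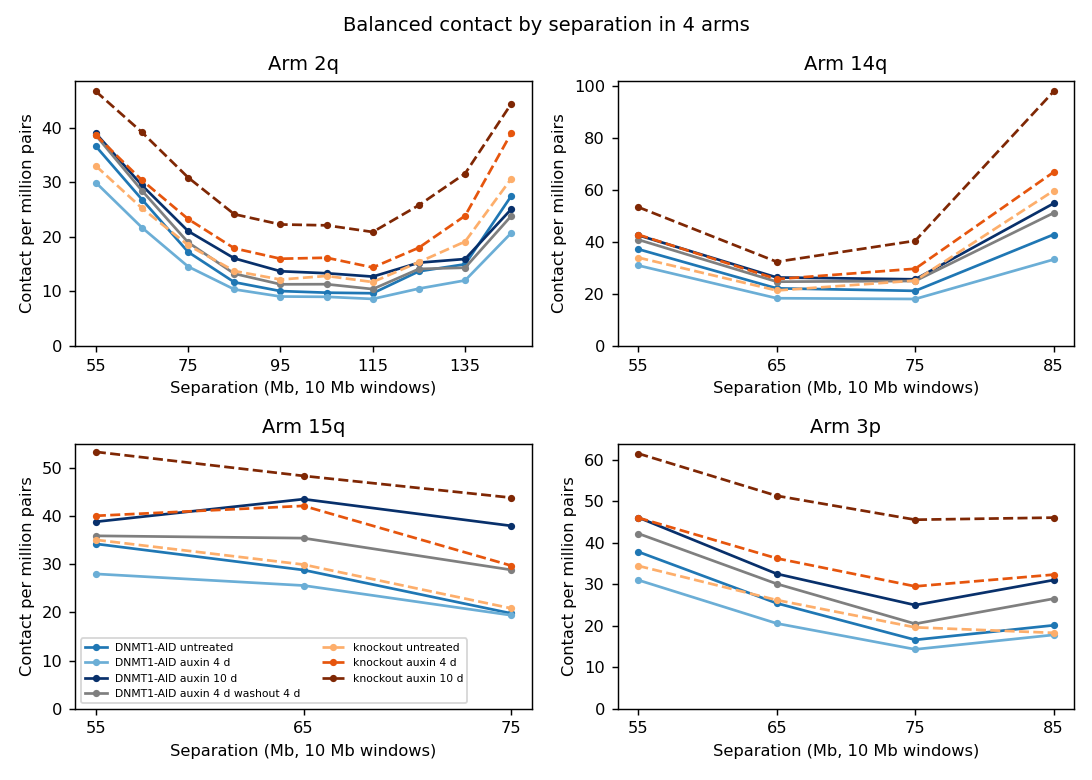
Balanced contact per 1000000 bin pairs (vertical axis) against separation in windows of 10 Mb (labelled by their middle) on the arms 2q, 14q, 15q and 3p, 1 line per library. The lines of 2q and 14q turn upward at the far end, to 27.5 and 42.9 in untreated DNMT1-AID cells, while those of 15q do not.

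Several far windows with large changes were looked at after their values were seen. The highest log2 ratio at 10 d in DNMT1-AID cells, 1.15, was that of 3q at 100 to 110 Mb, which also had 1.33 in knockout cells at 10 d. That window rests on as few as 14 contacts, and 0.14% of its clustered bin pairs joined B bins to B bins. At 70 to 80 Mb on 15q the level was 19.8 untreated, 19.4 after 4 d, 37.9 after 10 d and 28.8 after washout in DNMT1-AID cells, and 20.8, 29.7 and 43.8 in knockout cells. The log2 ratio at 10 d was 0.94 in DNMT1-AID cells and 1.07 in knockout cells, and 31.3% of the clustered bin pairs there joined B bins to B bins and none joined A bins to A bins. At 80 to 90 Mb on 3p, where 63.0% joined B to B, the level was 20.1, 17.8, 31.0 and 26.5, and 18.3, 32.3 and 46.0 in the same order. There knockout cells had a log2 ratio of 0.82 at 4 d and of 1.33 at 10 d. The next highest at 4 d was 7q at 90 to 100 Mb (0.75), where 33.9% of pairs joined A to A and 2.88% B to B, with 110 contacts in the shallowest library. At the far end of 2q, where most pairs joined A to A, the log2 ratio at 10 d was -0.13 in DNMT1-AID cells and 0.53 in knockout cells. That window rests on as few as 127 contacts. At 80 to 90 Mb on 14q, where 60.3% of pairs joined A to A, the ratios at 10 d were 0.35 and 0.71.

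Over the arms, the change with auxin in knockout cells went with the share of B-to-B bin pairs. At 60 to 70 Mb Spearman's rho between the log2 ratio at 4 d and that share was 0.91 over 17 arms, and at 70 to 80 Mb it was 0.91 over 16. At 50 to 60 Mb it was 0.62 (18 arms) and at 80 to 90 Mb 0.60 (13 arms). For the ratio at 10 d the values from the nearest window to the farthest were 0.38, 0.53, 0.88 and 0.65. The comparisons at 4 d and 10 d share the untreated knockout library. In DNMT1-AID cells at 10 d the values were -0.10, 0.15, 0.71 and 0.27, and at 4 d they were 0.36, -0.037, 0.10 and 0.016. Between the genotypes the values were -0.72, -0.29, -0.20 and -0.40 untreated, -0.34, 0.37, 0.47 and 0.011 at 4 d, and -0.56, -0.012, 0.19 and 0.049 at 10 d. The untreated knockout library is the reference of the auxin ratios in knockout cells and the numerator of the untreated ratio between genotypes, so the signs of those values are not independent. With the share of A-to-A pairs, rho of the auxin ratios in knockout cells was negative. In the same order of windows it was -0.36, -0.75, -0.87 and -0.40 at 4 d, and -0.48, -0.48, -0.86 and -0.88 at 10 d. The relations to the B-to-B and the A-to-A share were not separated. The arms share their libraries and depth, and the clusters come from the untreated DNMT1-AID library, so these values are descriptions over arms.

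Pairs on opposite arms of a chromosome give a second reference at the same separations. On 13 chromosomes with at least 10000 matched bin pairs, contact within arms was 0.93 times that between arms in untreated DNMT1-AID cells, 0.86 times after 4 d, 1.02 times after 10 d and 0.92 times after washout. Knockout cells had 0.999 times untreated, 1.15 times after 4 d and 1.31 times after 10 d. Contact within arms exceeded that between arms on 6, 4, 8 and 5 of 13 chromosomes in the DNMT1-AID libraries in this order, and on 8, 12 and 13 in the knockout libraries. In knockout cells at 10 d, contact within arms was higher than untreated by a log2 ratio of 0.72 and that between arms by 0.33, and the ratio of the 2 was higher on 13 of 13 chromosomes. In DNMT1-AID cells at 4 d it was higher on 1 of 13, and at 10 d on 12 of 13. Pairs at nearer separations were not matched in this way, so the counts of chromosomes have no background beside them. Chromosome 9 had the lowest ratio in the 4 DNMT1-AID libraries, with 0.54 untreated, 0.49 after 4 d, 0.70 after 10 d and 0.55 after washout. In knockout cells it had 0.86, 1.17 and 1.33, so the genotypes did not overlap there. This was not particular to chromosome 9. The genotypes did not overlap on chromosomes 4, 5, 8, 11, 12 and 18 either, and they overlapped on chromosomes 1, 2, 3, 6, 7 and 10.

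**Figure D5:**
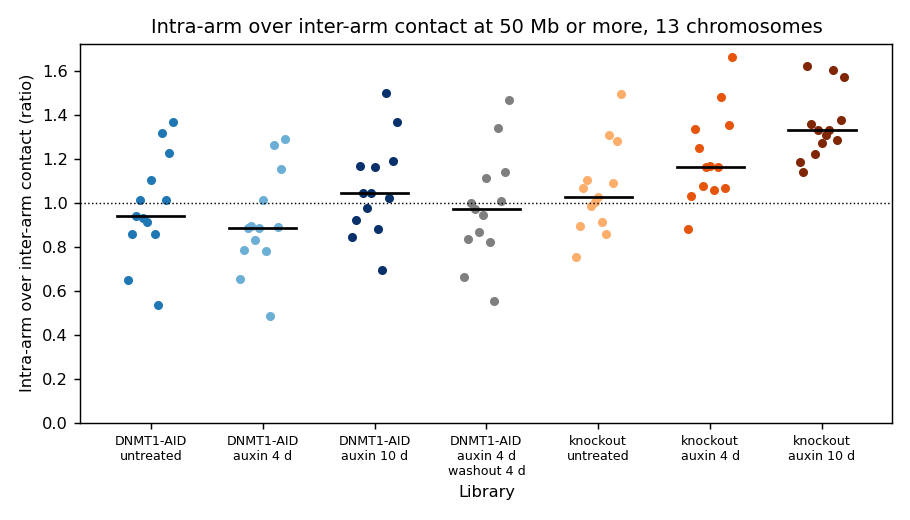
Contact within arms over contact between the arms of the same chromosome (vertical axis, ratio) at matched separations of 50 Mb or more, 1 point per chromosome for 13 chromosomes in each library, with the median as a bar; the dotted line marks equal contact. All 13 points lie above 1 in the knockout library at 10 d, against 4 of 13 in the DNMT1-AID library at 4 d.

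The last comparison sets the auxin effects of the 2 genotypes side by side. At 4 d contact beyond 50 Mb was lower in DNMT1-AID cells and higher in knockout cells than in their own untreated library, and the log2 ratio was higher in knockout cells by 0.56, with arms from 0.37 (1p) to 0.75 (3p). At 10 d contact was higher in both, and the difference was 0.46, with arms from 0.31 (15q) to 0.61 (8q). It was above 0 on 19 of 19 arms at both times, against a background of 90.7% of the 527 windows at 4 d and 91.5% at 10 d. The signs at 4 d were opposite, lower in DNMT1-AID and higher in knockout cells, on 19 of 19 arms and in 78.2% of all windows. Among the 186 windows of the 19 arms beyond 50 Mb the difference had a median of 0.53 at 4 d and 0.43 at 10 d, and over all windows 0.37 and 0.29. With 1 library in each group this difference has no replicate check.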

How the data were processed

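Libraries came from an Arima Hi-C kit and paired-end sequencing, per the labels' protocols. The submitters' processing notes name BWA and hg38. Read-pair filters, the program used for balancing and BWA's version were not found in the labels or file headers. The deposited tables hold, for every arm and separation in steps of 50 kb, the raw count of contacts, the number of valid bin pairs and the summed balanced signal, per the file headers. Other deposited tables give these for opposite arms and for chromosome pairs, and names of bin clusters for the untreated DNMT1-AID library. Contacts nearer than 100 kb were not used.

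Separations of 50 Mb or more (1000 bins) were used. Balanced contact is the balanced signal divided by the number of valid bin pairs, times 1000000, and log2 ratios were computed from it. Trans contact is that of the arm's own chromosome with the other autosomes and X. Windows were 10 Mb wide with at least 1000 valid bin pairs, and 5 Mb for the background. A bin was A in clusters A1 and A2 and B in B2/B3 and B4, and compartment shares needed 1000 clustered pairs. Clusters covered 62.3% of the bins of 1p, 49.6% of 2p, 71.6% of 9q, 76.5% of 1q and none of 13q. Genes were placed by the RefSeq table of GRCh38.p14. Inter-arm pairs were matched at each separation, with at least 10 pairs of each kind.

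No difference between libraries was tested, since each group holds 1 library. For each comparison the 3 highest and 3 lowest arms are named, and in the level over trans the 3 highest and 3 lowest arms untreated, with arms beyond 100 Mb and those of chromosome 8. Members and lists were chosen with earlier results of these data known. The computation of the ratios was checked on simulated counts. Python 3.11.15, numpy 2.4.6, pandas 2.3.3 and scipy 1.17.1 were used. The alternatives were a limit of 60 Mb, raw counts, matched separations, no chromosome 8, a minimum of 50000 pairs, trans contact of all autosomes and, added later, no 9q.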

Additional observations from a re-analysis of the deposited data

Results flagged for a closer look

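The auxin effect at 4 d on contact beyond 50 Mb had opposite signs in the 2 genotypes: the log2 ratio to untreated was -0.27 in DNMT1-AID cells and 0.29 in knockout cells, a difference of 0.56. The signs were opposite on 19 of 19 arms, and in 78.2% of the 527 windows over all separations. With 1 library in each of the 4 groups the difference was not tested.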

How the results depend on the processing

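No paired analysis was possible because each group holds 1 library and the labels carry no replicate numbers. The log2 ratios of contact kept their direction under the alternatives, except that of the untreated genotypes without 9q (-0.0020 against 0.0020), an alternative chosen after seeing the data. Contact over trans after 10 d in DNMT1-AID cells was below the untreated value from 50 Mb (5.84 against 6.09) and above it from 60 Mb (4.72 against 4.61). Where values moved, the cause was not tested.
With separations of 60 Mb or more (18 arms), the log2 ratios were -0.24, 0.33 and 0.15 for DNMT1-AID cells at 4 d, 10 d and after washout, 0.33 and 0.80 for knockout cells at 4 d and 10 d, and 0.10, 0.67 and 0.57 between genotypes untreated, at 4 d and at 10 d; 16 of 18 arms were higher in untreated knockout cells. Contact over trans was then 4.61, 4.04, 4.72, 4.76, 4.22, 5.39 and 6.32 in the order DNMT1-AID untreated, 4 d, 10 d, washout, knockout untreated, 4 d, 10 d. With separations matched, the log2 ratios in the order above were -0.23, 0.33, 0.18, 0.32, 0.77, 0.11, 0.66 and 0.54. With raw counts they were 0.69 for knockout cells at 10 d and 0.45 between genotypes at 10 d, and contact over trans was 6.05, 5.22, 5.82, 6.07, 5.17, 6.47 and 7.18. Without chromosome 8 the log2 ratios were 0.24 (DNMT1-AID, 10 d), 0.0093 (untreated genotypes) and 0.56 (genotypes, 4 d), and contact over trans was 6.04, 5.18, 5.81, 6.08, 5.21 and 7.28, the knockout library at 4 d moving by less than its counting interval. Against the trans contact of all autosomes it was 5.39, 4.64, 5.24, 5.43, 4.62, 5.74 and 6.47. With at least 50000 bin pairs the DNMT1-AID library at 4 d had 5.22, and without 9q it had 5.24, with 0.55 between genotypes at 4 d. Counting intervals are narrow at these depths, while spread between cultures is unknown; the washout library limits the far windows.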
